A study of Mus musculus with 8 samples.

Results

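The genes described here are the cyclins, the cyclin-dependent kinases (CDKs), their inhibitors, the E2F transcription factors and the Cdc25 phosphatases, followed in mouse embryonic stem (ES) cells on their way to neurons. They were taken by gene name, in a choice made with earlier results of these data known. All array probes named for a cyclin A, B, D, E, F, G, H or K were taken. So were those of E2f and Cdc25 genes and of Cdk genes with a number and no letter after it. Cdkn genes were taken where the name ends in a digit and a letter from a to d, apart from Cdkn1a and Cdkn1c. This gave 49 genes and 71 probes of the 36163 gene names and 55681 probes on the array. A probe was used where its signal was well above the local background on at least 4 of the 8 arrays, which left 47 of the 49 genes and 67 of the 71 probes. Ccnb3 and Ccne2, which encode cyclins B3 and E2, had no such probe and have no value here.

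The cells were E14Tg2A, an established mouse ES line of strain 129/Ola, so every sample comes from a single line. ES cells (0 days of in vitro differentiation, DIV) were kept in serum with leukemia inhibitory factor (LIF). They were then aggregated for 2 days in serum-free medium without LIF to give epiblast-like aggregates (ELA, 2 DIV), plated on laminin to give neural progenitor cells (NPC, 6 DIV) and cultured further without B27 supplement to give a mixture of progenitors and neurons (NPC/Neu, 10 DIV). At each stage total RNA was measured, and so was Ago–RNA, the RNA that came down with an antibody against all Argonaute (Ago) proteins from cytoplasmic extract. There was 1 array for each of the 8 conditions, made from RNA pooled over 3 experiments, so no value has a replicate, no test was made and no p-value is given.

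Levels are log2 values of the normalized signal. Ago enrichment, E, is the level in Ago–RNA minus that in total RNA at 1 stage, and ΔE is the difference in E between consecutive stages. A difference of 1 or more, that is a ratio of 2 or more, was counted, and the words rose and fell are kept for such differences. The only error that could be measured was that between repeated spots of 1 probe on the same array. Its SD was 0.15 to 0.16 per array, which gives an SD of 0.21 to 0.23 for E, 0.30 to 0.31 for ΔE and 0.22 for a change in total RNA. It holds neither the spread between cultures nor that between precipitations. Levels of different genes are not compared, since each probe has its own brightness.

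Most stage markers moved with their labels, but some did not. Total RNA of Pou5f1, the transcription factor Oct4 of pluripotent cells, was 15.21, 14.76, 7.98 and 8.31 in the 4 stages in order of time. Fgf5, a marker of primed epiblast, had 11.96, 14.78, 7.48 and 7.89, and Fabp7, a marker of neural progenitors, had 6.96, 10.07, 15.46 and 17.38. The neuronal gene Tubb3 was highest at the last stage with 17.01, against 12.95 in ES cells. Otx2, listed with primed epiblast, stayed at 15.91 and 15.97 in the last 2 stages. Pou3f1 of the same list and the pluripotency genes Esrrb and Zfp42 were higher by 1 or more in NPC/Neu than in NPC cells, Esrrb with 11.55 against 9.59. Of the 11 listed markers of endoderm, mesoderm, astroglia and fibroblasts, 10 had a usable probe, and 4 of the 10 (Foxa2, T, Kdr and Col1a2) were higher by 1 or more in NPC/Neu than in ES cells. The log2 of their summed signal was 11.76, 11.94, 13.24 and 13.06 in the 4 stages. Of the endoderm list, Gata4 and Gata6 ranged over 6.87 to 7.66 and 6.65 to 6.91, and Gata6 was not well above background in total RNA of any stage. Foxa2 of that list had 6.76, 8.01, 9.55 and 10.10 in the 4 stages. Sox17 had 6.82, 7.09, 8.08 and 7.16, with its ELA signal not well above background. These markers of other cells thus moved with the stages, and their part in the results below was not tested.

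Cyclins are the activating partners of CDKs. D-type cyclins with Cdk4 and Cdk6 act early in G1, where they phosphorylate the retinoblastoma family and so free E2F factors. Cyclin E with Cdk2 acts at the entry to S phase, and cyclins A and B with Cdk1 at G2 and mitosis. Inhibitors of the Cdkn2 (Ink4) family block Cdk4 and Cdk6, Cdkn1b (p27) blocks cyclin E with Cdk2, and Cdc25 phosphatases remove inhibitory phosphates from CDKs. ES cells are known for a short G1 phase, which lengthens on neural commitment. Many of these mRNAs are known targets of microRNAs (miRNAs), which guide Ago proteins to short matches in the 3′ untranslated region (3′ UTR).

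The first question was how the total RNA of these genes changed from stage to stage. Between ES and ELA cells none of the 44 genes measured in both rose or fell by 1 or more, whereas 4.11% of all measured genes rose and 4.28% fell. The median change of the 44 genes was 0.04, against 0.02 over all genes. Between ELA and NPC cells 7 of 44 rose and 5 fell, with 9.92% and 9.21% over all genes. Between NPC and NPC/Neu cells 1 of 47 rose and 3 fell, with 5.63% and 4.18% over all genes. In bulk RNA, fewer cells that express a gene and less of its RNA per cell cannot be told apart.

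The D-type cyclins were all higher in NPC than in ELA cells. Ccnd2, which encodes cyclin D2, had total RNA levels of 9.82, 10.16, 14.95 and 15.78 from ES to NPC/Neu cells. It was low in the first 2 stages and high in the last 2, and its rise of 4.79 between ELA and NPC cells, a ratio of 27.8, was the largest among these genes at any transition. Ccnd1 had 13.96, 13.46, 14.53 and 15.21 in the same order, with a rise of 1.06 between ELA and NPC cells. Ccnd3 had 14.85, 14.61, 15.62 and 14.94, so its rise of 1.01 at that step was followed by a change of -0.67. The rises of Ccnd1 and Ccnd3 lie near the size counted and came to 0.80 and 0.86 when arrays were scaled to their 75th percentile, so both depend on the scaling.

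Ccne1, which encodes cyclin E1, went the other way. Its total RNA was 14.71, 13.98, 12.46 and 11.16, lower at each stage than at the one before. The change was -0.73 at the first step, and it fell by 1.52 at the second and by 1.29 at the third, which makes 3.55 from the first stage to the last. Both of its probes had this order. The partner kinase Cdk2 had 11.52, 11.18, 11.06 and 10.68, with no step of 1 or more.

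Cyclins of S phase and mitosis held their levels longer. Ccna2 (cyclin A2) stayed between 14.30 and 14.69 at all stages. Ccnb1 (cyclin B1) had 14.13, 14.14, 13.74 and 12.83, and Ccnb2 (cyclin B2) had 15.50, 15.51, 15.78 and 15.13, so both were lowest at the last stage. For Ccnb1 the mean changed by -0.91 at the last step, its brightest probe by -0.53 and its other probes by -1.02 and -1.18. Ccna1, the cyclin A of the germ line, was near background: it was not well above background in either ELA array, and its 8.62 in NPC total RNA was at least 2.68-fold higher than in ELA cells. Cdk1, the mitotic kinase, had 10.75, 10.51, 10.43 and 9.69 and was 1.06 lower at the last stage than at the first. At the last step its dimmest probe changed by -0.14 and the others by -1.24 and -0.83.

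Other cyclins moved singly. Ccng2, a cyclin G known for its expression in cells that leave the cycle, had total RNA levels of 7.46, 8.39, 10.20 and 10.00. Its change of 0.94 between ES and ELA cells was the highest of these genes at that step, where Cdkn2b had the lowest with -0.97, and it rose by 1.80 between ELA and NPC cells. Ccng1, a target of p53, had 13.70, 13.32, 14.16 and 14.29. Ccnf, which encodes the F-box protein cyclin F, had 15.08, 14.80, 14.71 and 13.65 and fell by 1.06 at the last step. Ccnh and Ccnk, partners of Cdk7 and of Cdk12 and Cdk13, stayed within 10.38 to 10.82 and 14.62 to 14.86.

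The kinase partners of the D-type cyclins had no counted step. Cdk4 had 15.56, 15.82, 16.43 and 16.43, with a change of 0.61 between ELA and NPC cells. Cdk6 was dim at every stage, with 7.43, 7.01, 7.67 and 7.53, and its ELA total RNA was not well above background, so that its NPC level was at least 1.57-fold higher. The largest moves among the CDKs were in less studied members. Cdk14, a membrane-bound kinase that pairs with cyclin Y, had 9.64, 9.35, 11.68 and 11.71 and rose by 2.33 between ELA and NPC cells. Cdk18 had 12.97, 13.23, 10.31 and 10.16 and fell by 2.92 at the same step. Cdk5, the CDK of postmitotic neurons, had 10.80, 11.22, 11.39 and 11.94, so it was highest at the last stage although no step reached 1. The 6 CDKs of the Cdk-activating kinase and of transcription (Cdk7, Cdk8, Cdk9, Cdk12, Cdk13 and Cdk19) had no change of 1 or more in their means over probes. Values ran from -0.92 for Cdk12 between ELA and NPC cells to 0.56 for Cdk19 between NPC and NPC/Neu cells. The brighter Cdk12 probes alone changed by -1.17 and -1.40 between ELA and NPC cells, and the dimmest by -0.20.

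The CDK inhibitors moved in opposite directions. Cdkn2a, whose locus encodes p16 and p19Arf, had total RNA levels of 11.54, 11.10, 9.33 and 8.95, and its neighbour Cdkn2b (p15) had 9.99, 9.01, 7.15 and 7.97. They fell by 1.78 and by 1.87 between ELA and NPC cells. Cdkn2c (p18) had 6.91, 7.15, 8.81 and 10.16. Its ELA signal was not well above background, so its NPC level was at least 3.16-fold higher than that of ELA cells, and it rose by a further 1.36 to NPC/Neu cells. Cdkn2d (p19Ink4d) had 12.03, 12.53, 13.36 and 13.35, and Cdkn1b had 9.42, 10.29, 10.90 and 11.01. These last genes had no step of 1 or more but stood 1.32 and 1.59 higher at the last stage than at the first. For Cdkn1b this holds for the mean over its probes. Its bright probe alone rose by 1.16 between ES and ELA cells, and its dim probe changed by 0.58. For Cdkn2a and Cdkn2b only 1 of 2 probes each was used.

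Among the E2Fs the activating members had no step of 1 or more in total RNA. E2f1 lay between 12.55 and 12.73 at all 4 stages and E2f3 between 11.09 and 11.54. E2f2 had 12.68, 12.50, 13.35 and 13.35, with a change of 0.85 between ELA and NPC cells. Among the repressive members E2f4 had 11.43, 11.50, 9.94 and 9.52 and fell by 1.57 between ELA and NPC cells. E2f5 had 10.93, 11.22, 12.32 and 11.04, so it rose by 1.10 at that step and fell by 1.28 at the next. E2f6, a repressor that acts with polycomb proteins, had 13.47, 13.86, 14.73 and 14.75. The atypical E2f7 and E2f8, which need no dimer partner, had 10.74, 11.12, 10.81 and 10.61, and 12.19, 11.84, 11.18 and 11.32.

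The Cdc25 phosphatases parted as well. Cdc25b, which acts at the entry to mitosis, had 11.87, 12.16, 13.75 and 14.73 and rose by 1.59 between ELA and NPC cells. Cdc25a, which acts at G1/S and beyond, had 13.73, 13.46, 13.15 and 12.87, lower at every stage than at the one before but with no step of 1. Cdc25c had 10.62, 11.04, 11.90 and 10.95 and was highest in NPC cells.

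**Figure D1:**
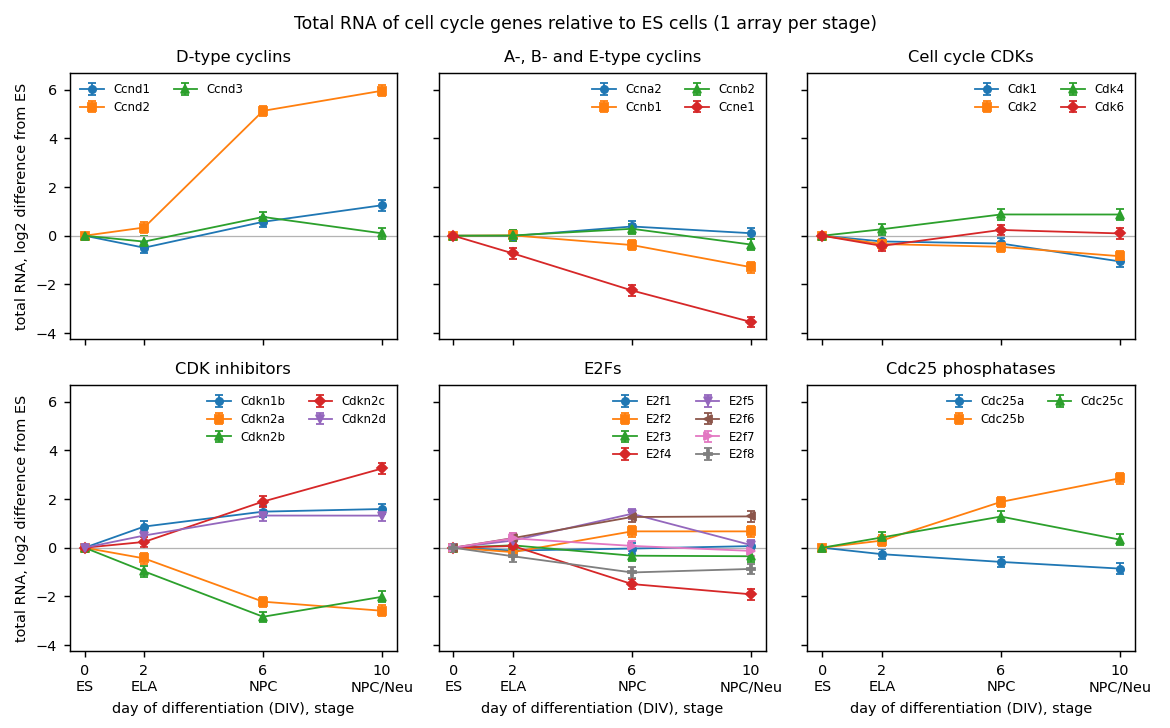
Total RNA of 27 cyclin, CDK, inhibitor, E2F and Cdc25 genes as the log2 difference from ES cells (y axis) against days of differentiation (x axis), with 1 array per point and bars of 1 SD between repeated spots. Ccnd2 stood 5.96 above its ES level at 10 DIV, Cdkn2c 3.26 and Cdc25b 2.85 above, whereas Ccne1 stood at -3.55 and Cdkn2a at -2.59.

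The second question was which of these mRNAs were enriched in Ago–RNA relative to total RNA. E is a relative measure, and an E at or below zero does not mean that an mRNA was not bound by Ago. Their E was slightly higher than that of all genes at each stage. The median E over the 4 stages was 0.19, 0.09, 0.30 and 0.32, against 0.03, -0.02, 0.05 and 0.08 over all measured genes. The gaps were not tested. They ranged from 0.10 to 0.40 over all alternatives. With each kind of RNA normalized apart they were 0.36 in ES and 0.33 in ELA cells. That choice also moved the median E of these genes up by 0.34, 0.41, 0.20 and 0.23 in the 4 stages. The sign of a small E thus depends on the normalization. All measured genes include those without an annotated 3′ UTR. Among genes with one, the median E in ES cells was 0.13 for the 12131 without the miR-294 match described below. It was 0.36 for the 2254 with it. How much of the gaps stems from this difference between sets was not tested. In ES cells 4 of 47 genes had an E of 1 or more and 1 had -1 or less, where all genes gave 11.0% and 12.0%. In ELA cells 4 of 44 were at 1 or more and none at -1 or less (3.79% and 2.54% over all genes). In NPC cells the counts were 6 and 0 of 46 (5.87% and 6.14%), and in NPC/Neu cells 4 and 0 of 46 (12.3% and 12.0%). E also moved with transcript length. Spearman's rho between E and the length of the longest coding transcript was 0.47, 0.41, 0.30 and 0.23 over 47, 44, 46 and 46 of these genes in the 4 stages, and 0.60, 0.37, 0.37 and 0.50 over up to 13988 genes, as a description of single arrays. The median length was 2886 bases for the 49 genes, close to the 2881.5 bases over 14728 measured genes.

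**Figure D2:**
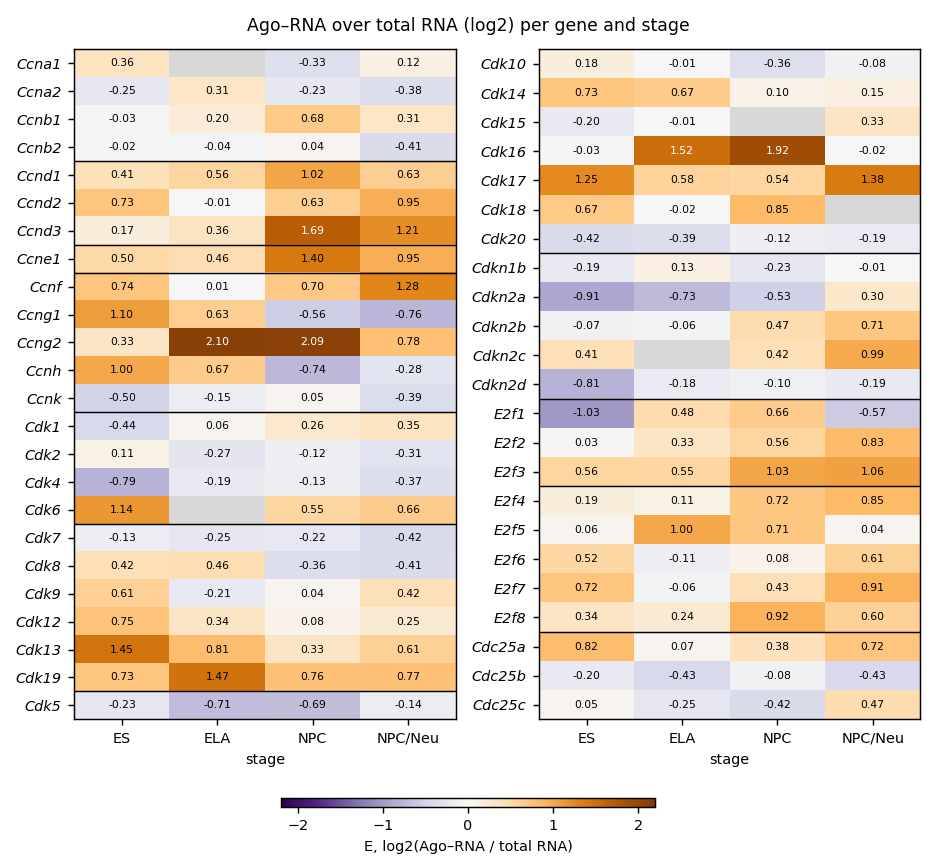
Ago enrichment (E, a log2 difference between the RNAs) for each of the 47 genes (rows, with black lines between role groups) at the 4 stages (columns), with the value written in each cell and grey cells where a signal was below background or set aside. Ccng2 and Cdk16 had an E of 1 or more in ELA and in NPC cells, and E2f1 went from -1.03 in ES to 0.66 in NPC cells.

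Since Ago finds its targets through miRNAs, the matches to some well-known miRNAs in these genes are shown first. The mature mouse sequences below are from RefSeq, with the seed (bases 2 to 8) in capitals. miR-294 belongs to the cluster that is abundant in ES cells, miR-17 and miR-20a share 1 seed and come from the cluster known to act on E2f1, miR-15a and miR-16 share another seed and are known to act on D- and E-type cyclins, and let-7 and miR-9 are known for their rise in differentiating neural cells. miR-34a is induced by p53. The miRNAs themselves were not measured on these arrays.
mmu-miR-294-3p: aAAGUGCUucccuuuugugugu
mmu-miR-17-5p: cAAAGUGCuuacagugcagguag
mmu-miR-20a-5p: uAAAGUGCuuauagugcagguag
mmu-miR-15a-5p: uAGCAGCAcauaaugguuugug
mmu-miR-16-5p: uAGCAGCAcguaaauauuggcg
mmu-let-7a-5p: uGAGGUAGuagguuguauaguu
mmu-let-7c-5p: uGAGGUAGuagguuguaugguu
mmu-miR-34a-5p: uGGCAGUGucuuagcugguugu
mmu-miR-9-5p: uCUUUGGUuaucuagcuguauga

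The complement of each seed was searched for in the longest annotated 3′ UTR of each gene, which 47 of these genes with a usable probe and 14385 of all measured genes had. The miR-294 match AGCACTT was found in 11 of 47 genes (15.7% of all measured genes), the miR-17 and miR-20a match GCACTTT in 12 (13.2%) and the miR-15a and miR-16 match TGCTGCT in 15 (23.2%). The matches of let-7 (CTACCTC), miR-34a (CACTGCC) and miR-9 (ACCAAAG) were found in 8, 6 and 6 genes (10.2%, 16.4% and 13.1%). AGCACTT and GCACTTT overlap in 6 letters. A match is a description of the sequence and was not tested for binding. For Cdk8 and Cdk9 the longest annotated 3′ UTR spans introns. Both are counted for miR-9 and for miR-15a and miR-16, and Cdk8 also for let-7. Whether their matches are coding sequence in other transcripts was not checked. The pieces of 3′ UTR below belong to genes described here. They are given from 5′ to 3′ on the strand of the gene, with the match in capitals and positions on mm9 (NCBIM37), and each lies in the last part of an mRNA downstream of its coding sequence. The pieces of E2f1, Ccng2, Ccnd1 and Ccnd2 match miR-17 and miR-20a. Those of Ccnd1 and Ccnd2 also hold the overlapping match to miR-294. The piece of Ccng1 matches miR-294, those of Ccnd3 and Ccne1 match miR-15a and miR-16, and that of Cdc25a matches let-7.
E2f1, chr2:154385941-154385969, minus strand: gggtgggctctaactGCACTTTtggtgtc
E2f1, chr2:154385426-154385454, minus strand: cccaccctccagtctGCACTTTgatttgt
Ccng2, chr5:93704229-93704257, plus strand: gtacttaaaacgttgGCACTTTatttttt
Ccnd1, chr7:152117574-152117602, minus strand: ccattccatttcaaaGCACTTTtggtcag
Ccnd2, chr6:127079351-127079379, minus strand: cattccattagaaaaGCACTTTgaaaatt
Ccng1, chr11:40564048-40564076, minus strand: agtagttactgaaatAGCACTTctttaaa
Ccnd3, chr17:47736228-47736256, plus strand: cactgttgctttgctTGCTGCTtagcttc
Ccne1, chr7:38883036-38883064, minus strand: ctcttattttgtaagTGCTGCTatgtcta
Cdc25a, chr9:109795236-109795264, plus strand: ttatcatcctaggagCTACCTCtactttt

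The 11 genes with a miR-294 match had a median E in ES cells of 0.72 and a median 3′ UTR of 2427 bases, and the 36 without one had 0.18 and 1142 bases. Over all genes the medians of E were 0.36 for 2254 genes with the match and 0.13 for 12131 without it. The 15 genes with a miR-15a and miR-16 match had a median E of 0.56 in ES cells, against 0.06 for the other 32, and all genes gave 0.35 and 0.11. For miR-9 and let-7 the order of the medians was not the same at every stage. For miR-9, 6 genes with its match had 0.71 in ES and 0.15 in NPC cells, and the 41 others had 0.17 and 0.43. For let-7, 8 genes with its match had 0.47 in ES and 0.04 in ELA cells, and the 39 others had 0.18 and 0.12. Genes with a match had the longer 3′ UTRs in each of these comparisons, and the part of length in the differences was not tested.

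In ES cells the highest E was that of Cdk13, a kinase of RNA polymerase II, whose Ago–RNA of 11.93 stood 1.45 above its total RNA of 10.48. Cdk17 followed with an E of 1.25 (11.04 against 9.79), then Cdk6 with 1.14 (8.58 against 7.43) and Ccng1 with 1.10 (14.80 against 13.70). These neighbours lie within 2 SDs between spots of each other. Just under the size counted were Ccnh (0.9985) and Cdc25a (0.82), and E2f1 was lowest with -1.03 (11.63 against 12.66). Of the CDK inhibitors 4 of 5 were below zero, some only slightly, with -0.91 for Cdkn2a, -0.81 for Cdkn2d, -0.19 for Cdkn1b, -0.07 for Cdkn2b and 0.41 for Cdkn2c. In the same order their longest coding transcripts have 929, 1271, 4552, 1393 and 2471 bases, against the median of 2886 over the 49 genes. The part of transcript length in these values was not tested. Cdk4 had -0.79 and Cdk1 had -0.44.

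The third question was how Ago enrichment changed from stage to stage, which the study used to find mRNAs that Ago released or took up. Between ES and ELA cells 3 of 44 genes rose in E by 1 or more and none fell, with 8.54% and 6.69% over all genes, and the median ΔE was -0.03 against -0.01 over all genes. Between ELA and NPC cells 1 of 43 rose and 2 fell (1.65% and 3.22%), and between NPC and NPC/Neu cells none of 45 rose and 3 fell (2.04% and 4.16%). Members in each class are few, and the shares are of the same order as those of all genes. By thresholds taken from the study's methods (an Ago–RNA level over 7.82, applied here at the stage of high E, an E of 2 or more at that stage, 0.5 or less at the other and a change of at least 1.5), 68 genes were loaded on Ago between ES and ELA cells and 100 were released. Ccng2 was among the 68, although its ES Ago–RNA of 7.79 lies under that level, so it would not count if the level were asked of both stages. None of these genes was among the 100, and none was in either class at the later transitions.

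Ccng2, Cdk16 and E2f1 were the genes that rose in E between ES and ELA cells, and the same genes fell between NPC and NPC/Neu cells. These transitions share no array. Over all genes E was at 1 or more for 11.0% in ES and 12.3% in NPC/Neu cells. The shares were 3.79% in ELA and 5.87% in NPC cells. The nuclear RNAs Malat1, Neat1, Kcnq1ot1 and Meg3 had a ΔE of 1.91, 0.86, 0.48 and 0.76 at the first transition. At the last it was -1.21, -0.81, -0.51 and -1.79. Whether a difference between the precipitations has a part in these courses was not tested. Ccng2 had Ago–RNA levels of 7.79, 10.49, 12.29 and 10.78 in the 4 stages, against total RNA of 7.46, 8.39, 10.20 and 10.00. At the first step its Ago–RNA changed by 2.70 and its total RNA by 0.94, and at the second by 1.79 and 1.80. Its E came to 0.33, 2.10, 2.09 and 0.78, with a ΔE of 1.77 at the first step, -0.01 at the second and -1.31 at the third. The 2.10 in ELA cells, a ratio of 4.29, was the highest E of any of these genes.

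Cdk16, a kinase that pairs with cyclin Y, had Ago–RNA levels of 10.79, 12.81, 14.09 and 11.92 and total RNA levels of 10.82, 11.29, 12.18 and 11.93. In ES and NPC/Neu cells both RNAs were at like levels (E of -0.03 and -0.02), and in ELA and NPC cells Ago–RNA stood 1.52 and 1.92 above total RNA. The ΔE was 1.56, 0.39 and -1.93.

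E2f1, the E2F most closely tied to entry into S phase, had Ago–RNA levels of 11.63, 13.03, 13.29 and 12.16, while its total RNA stayed between 12.55 and 12.73. E was below zero at the first and last stages, with -1.03 and -0.57, and above it in between, with 0.48 and 0.66. The ΔE was 1.51, 0.18 and -1.23, so nearly all of the change in E lay in the Ago–RNA. Its 3′ UTR holds both matches to miR-17 and miR-20a printed above. Each of Ccng2, Cdk16 and E2f1 rests on 1 probe, and Cdk16 held none of the 6 matches searched.

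The other E2Fs had courses of their own, apart from E2f5. E2f2 had E values of 0.03, 0.33, 0.56 and 0.83, and E2f3 had 0.56, 0.55, 1.03 and 1.06, so both were highest at the last stage, where E2f1 was below zero. The brighter of the E2f3 probes alone gave 0.67 and 0.69 at the last 2 stages. E2f5 had 0.06, 1.00, 0.71 and 0.04, higher in between as for E2f1, with a ΔE of 0.94 at the first step and -0.67 at the last, both beyond 2 SDs between spots. E2f4 had 0.19, 0.11, 0.72 and 0.85, E2f6 had 0.52, -0.11, 0.08 and 0.61, E2f7 had 0.72, -0.06, 0.43 and 0.91, and E2f8 had 0.34, 0.24, 0.92 and 0.60.

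**Figure D3:**
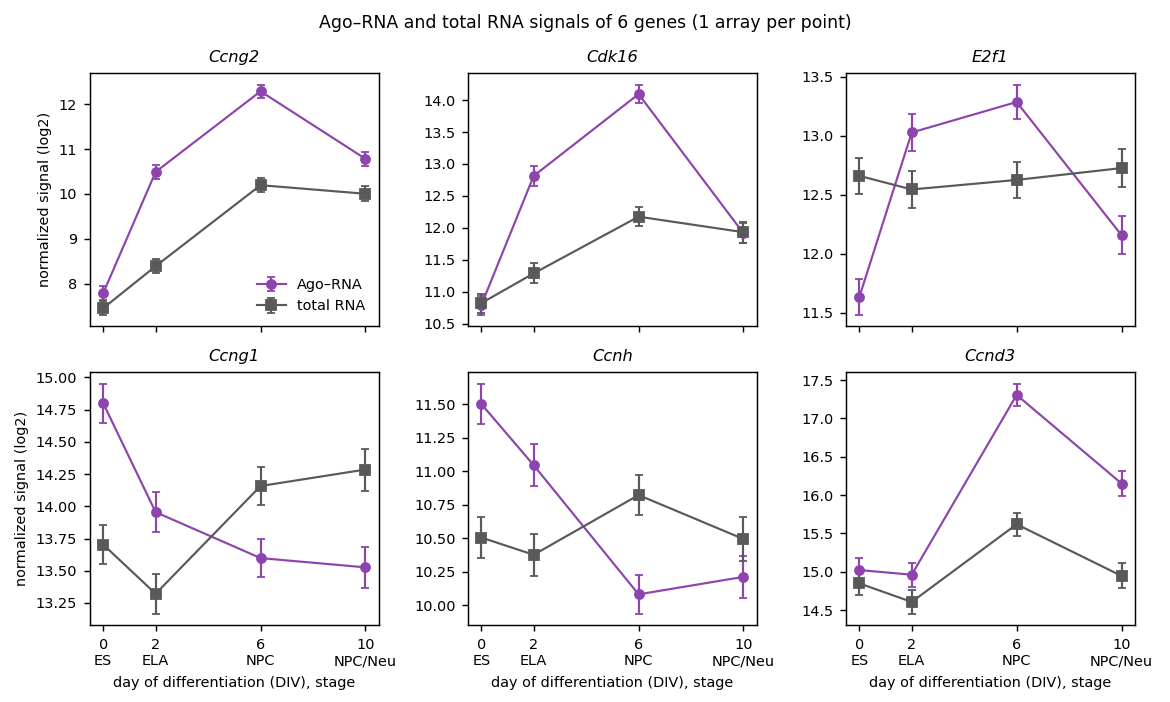
Normalized log2 signal (y axis, a separate scale for each gene) of Ago–RNA (circles) and total RNA (squares) against days of differentiation for 6 genes, with 1 array per point and bars of 1 SD between repeated spots. In the upper row the Ago–RNA of Ccng2, Cdk16 and E2f1 was higher at 2 and 6 DIV than at 0 DIV. In the lower row Ccng1 and Ccnh crossed from above to below total RNA, and Ccnd3 opened a gap of 1.69 at 6 DIV.

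Ccng1 and Ccnh lost Ago enrichment over the same days. Ccng1 had Ago–RNA levels of 14.80, 13.95, 13.60 and 13.53 and total RNA levels of 13.70, 13.32, 14.16 and 14.29, so its E went from 1.10 and 0.63 in the first stages to -0.56 and -0.76 in the last. Ccnh, the cyclin of the Cdk-activating kinase, had Ago–RNA levels of 11.50, 11.05, 10.08 and 10.21 and E values of 1.00, 0.67, -0.74 and -0.28. Between ELA and NPC cells E fell by 1.19 for Ccng1 and by 1.41 for Ccnh. From the first stage to the last the change was -1.86 for Ccng1, the lowest of these genes, and -1.28 for Ccnh.

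Among the D- and E-type cyclins Ccnd3 changed most in Ago enrichment. It had Ago–RNA levels of 15.02, 14.96, 17.31 and 16.15, and its E was 0.17, 0.36, 1.69 and 1.21. Its ΔE of 1.33 was the only rise of 1 or more between ELA and NPC cells, although with each kind of RNA normalized apart it came to 0.998. Ccnd1 had E values of 0.41, 0.56, 1.02 and 0.63. Ccne1 had 0.50, 0.46, 1.40 and 0.95, so both were highest in NPC cells, with steps there under 1. For Ccne1 this was so although its total RNA went down at every step. Ccnd2 had 0.73, -0.01, 0.63 and 0.95, so its strong rise in total RNA came with a rise of like size in Ago–RNA, which went from 10.15 in ELA to 15.58 in NPC cells.

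No mitotic cyclin or Cdc25 gene had a step in E of 1 or more. Ccna2 had E values of -0.25, 0.31, -0.23 and -0.38, Ccnb1 had -0.03, 0.20, 0.68 and 0.31, and Ccnb2 had -0.02, -0.04, 0.04 and -0.41. Ccnf had 0.74, 0.01, 0.70 and 1.28 and was highest at the last stage. Cdc25a had 0.82, 0.07, 0.38 and 0.72, lowest in ELA cells. With all arrays normalized together Cdc25b was below zero at all stages, from -0.43 to -0.08. Cdc25c had 0.05, -0.25, -0.42 and 0.47.

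Among the kinases Cdk2 ranged from -0.31 to 0.11 and Cdk4 from -0.79 to -0.13. Cdk4 was thus below zero at every stage with all arrays normalized together. Its ELA and NPC values of -0.19 and -0.13 lie nearer zero than the moves of the median given above for normalization apart. Cdk1 had -0.44, 0.06, 0.26 and 0.35. Cdk6 had 1.14 in ES, 0.55 in NPC and 0.66 in NPC/Neu cells, and in ELA cells its Ago–RNA was at least 1.78-fold above total RNA. Cdk13 had 1.45, 0.81, 0.33 and 0.61, Cdk17 had 1.25, 0.58, 0.54 and 1.38, and Cdk19 was highest in ELA cells with 1.47. The lowest ΔE between ES and ELA cells was that of Cdk9, the kinase that releases paused RNA polymerase II, with -0.82. The same size was reached by Cdk8, a kinase of the Mediator complex, between ELA and NPC cells. Cdk5 was below zero throughout with all arrays normalized together, at -0.23, -0.71, -0.69 and -0.14. Cdk18 had 0.67, -0.02 and 0.85, and its NPC/Neu Ago–RNA spot was set aside as irregular.

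Among the inhibitors Cdkn2a had E values of -0.91, -0.73, -0.53 and 0.30 and stood 1.21 higher at the last stage than at the first while its total RNA fell. Cdkn2b had -0.07, -0.06, 0.47 and 0.71, and Cdkn2c had 0.41 in ES, 0.42 in NPC and 0.99 in NPC/Neu cells. Cdkn2d had -0.81, -0.18, -0.10 and -0.19, and Cdkn1b had -0.19, 0.13, -0.23 and -0.01. None of the inhibitors had a step in E of 1 or more.

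**Figure D4:**
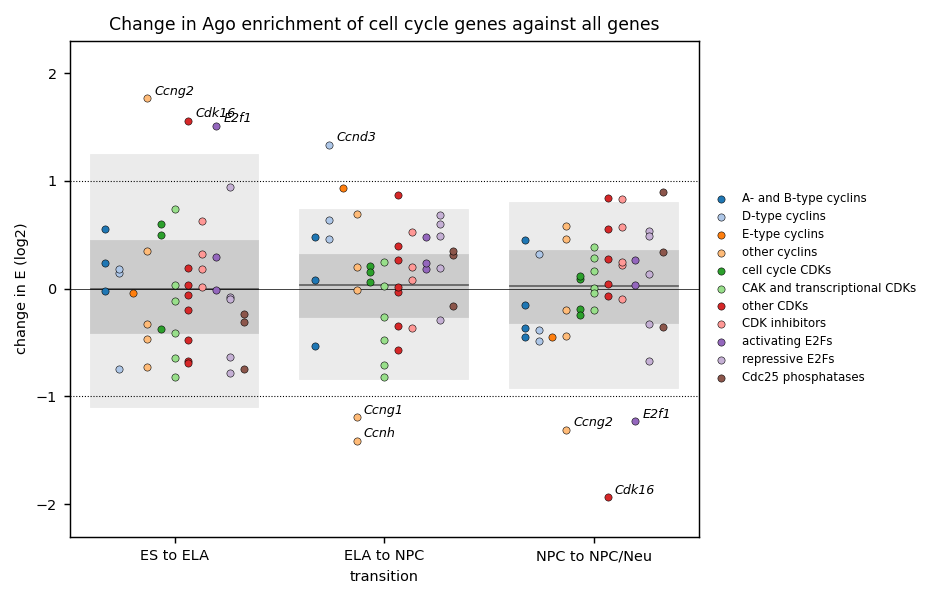
ΔE (y axis, log2) of each gene as a point colored by role group at the 3 transitions (x axis), over boxes that hold the middle 50% (dark grey) and 90% (light grey) of all measured genes, with a line at their median and dotted lines at 1 and -1. Ccng2, Cdk16 and E2f1 stood above 1 at the first transition and below -1 at the last, and most other genes lay within the light boxes.

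Probes of 1 gene did not always agree. No gene had probes with E beyond 1 in opposite directions, but some straddled the size counted. Of the Cdk12 probes, 2 gave an E of 1.36 and 1.25 in ES cells and the dimmest gave -0.37, with a mean of 0.75. The probes of Ccne1 gave 1.06 and -0.05 in ES cells, those of E2f7 1.07 and 0.38, those of Cdk7 -0.67 and 0.42, and those of Cdkn1b -0.77 and 0.39. Of the 71 probes, 46 lay in a 3′ UTR, 12 in coding sequence and 13 matched no annotated coding transcript of their gene, so most probes see the 3′ end of the mRNA.

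The other genes of the cell cycle pathway that were listed beside these (retinoblastoma family, Wee1 and Cks proteins, checkpoint and mitotic kinases, the ligases that degrade cyclins, and markers of proliferation) had 34 of 35 genes measured. In ES cells 11 of the 34 had an E of 1 or more and none -1 or less (11.0% and 12.0% over all genes), with a median of 0.67 against 0.03 over all genes. Highest were Top2a with 2.15, the topoisomerase of S phase and mitosis, Mki67 with 2.08, the proliferation antigen Ki-67, and Plk1 with 1.91, a mitotic kinase. Between ES and ELA cells 6 fell in E and 2 rose (6.69% and 8.54% over all genes), with a median ΔE of -0.52 against -0.01 over all genes. The 6 were Top2a (-1.85), Mki67 (-1.80), Cdc20 (-1.51), Plk1 (-1.42), Bub1b (-1.32) and Anapc2 (-1.16), and the 2 were Cks2 (1.21) and Anapc11 (1.11). Other mitotic genes of the list had smaller values, with -0.55 for Bub1, -0.36 for Aurka and 0.34 for Aurkb. In NPC/Neu cells the 6 that fell had an E of 1.65, 1.36, 1.59, 1.61, 0.67 and 1.34 in the order given. Of the 34 genes of the list, 10 were at 1 or more there and 1 at -1 or less (12.3% and 12.0% over all genes). Their median there was 0.40, against 0.19 in ELA cells. Whether the cyclin and CDK genes differ from these was not tested. In total RNA none of the 34 changed by 1 or more between ES and ELA cells, and Rb1, the retinoblastoma gene, was highest at the last stage, with 10.82, 10.63, 12.32 and 12.99.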

How the data were processed

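The authors deposited, for each of the 8 arrays (Agilent SurePrint G3 Mouse, 1 color, annotated on mm9), unnormalized spot intensity from the scanner software, as a mean per spot, a background median around it and a processed value. The file headers give Feature Extraction 10.7.3.1, while the submitters' processing notes name version 9.1 and limma. Background was corrected here by normexp on the mean and background signals (offset 50, limma 3.58.1, R 4.3.3), control and irregular spots (125 to 523 per array) were dropped, quantile normalization was applied to log2 signals of all 8 arrays together, and spots of the same probe were averaged. Of the probes, 53.4% to 61.2% were well above background, no spot was saturated, and the 75th percentile of the mean intensity ranged from 1060 to 1774 except on the Ago–RNA array of ES cells, where it was 3039. Arrays are named by stage and RNA. All lay on 1 slide, and each transition compares arrays from different rows of that slide.

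A gene's level is the mean over its probes well above background on at least 4 arrays. A contrast was computed where the gene was well above background on all arrays compared, and otherwise a bound was given against the gene's own dim signal or the lowest signal well above background on that array, whichever was higher. A spot set aside as irregular was used nowhere, and its probe served only where its gene had no complete probe. The spot SD came from 233 of 399 probes printed 10 times each. The number of arrays limits the precision, and no test was made. Further steps used pandas 2.3.3 and numpy 2.4.6 under Python 3.11.15. Gene coordinates, transcript lengths and 3′ UTRs came from GENCODE on NCBIM37, the build of the array, and miRNAs from RefSeq.

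The genes and lists were chosen with earlier results of these data known. Genes named with values are the canonical cyclins, CDKs, inhibitors, E2Fs and Cdc25 genes and the highest and lowest members of each role group for each quantity. Background correction followed by quantile normalization of all arrays together was tested on simulated data. The later steps and the alternative settings were not tested in this way. Alternatives were an offset of 16, the processed intensity with quantile normalization or 75th percentile scaling, normalization within each RNA type, and other rules for combining probes.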

Additional observations from a re-analysis of the deposited data

Results flagged for a closer look

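A few genes had an E that lay more than 2 SDs between spots below zero at one stage and above zero at another. Ccng1 had 1.10 in ES and -0.76 in NPC/Neu cells, Ccnh had 1.00 in ES and -0.74 in NPC cells, E2f1 had -1.03 in ES and 0.66 in NPC cells, and Cdc25c had -0.42 in NPC and 0.47 in NPC/Neu cells. With 1 array per condition none of these differences was tested, and Cdc25c lies only just past 2 SDs of 0.42 and 0.46.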

How the results depend on the processing

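No paired analysis was possible because each condition has 1 array. The 10 medians and 10 counts of genes at 1 or more in either direction were recomputed under 7 alternatives each. Of 70 counts 56 stayed within 1.5 times. Normalization within each RNA type moved the median E of all genes by 0.13 to 0.20 and of these genes to 0.52, 0.50, 0.50 and 0.55 from ES to NPC/Neu cells, and the counts of E to 13, 8, 15 and 15 in the 4 stages (from 5, 4, 6 and 4). Under the other 6 alternatives no median of these genes moved by more than 0.17. Scaling to the 75th percentile moved the median E of all genes by -0.33 in ES and -0.14 to -0.21 at the other stages and gave counts of 8 for E in ES, 5 for ΔE between ES and ELA (from 3), 2 for total RNA between ES and ELA (from 0) and 8 between NPC and NPC/Neu cells (from 4). The processed intensity with quantile normalization gave 8 for E in NPC/Neu, 5 for ΔE and 3 for total RNA between ES and ELA cells. The offset of 16 gave 2 and the brightest probe 1 for total RNA between ES and ELA cells, and the brightest probe gave 8 for E in ES cells. Of 44 single values of 1 or more, 0 changed sign under any alternative they could be computed for, and 8 came to less than 1 in at least 1: E of Ccnd1, Ccng1, E2f1 and E2f3 (NPC and NPC/Neu), ΔE of Ccnd3 and total RNA of Ccnd1 and Ccnd3 between ELA and NPC cells. E2f1 in ES cells was -0.56 with normalization within each RNA type. The cause of these moves was not tested.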
